A study of Mus musculus with 12 samples.

Results

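The 37 genes described here encode the complement and coagulation proteins that the liver makes for the blood, together with their inhibitors. They were chosen by gene name, 18 of them complement and 19 coagulation genes, out of 34607 gene names on the array. The name C1s in the files is C1s1 today. All 37 had a probe that passed the filter on dim probes, so none is missing from the 20572 genes tested. RNA of 12 livers, 1 array per mouse, was measured on Agilent one-colour arrays in 3 groups of 4 mice: E2f1 knockout (E2f1-/-), E2f2 knockout (E2f2-/-) and wild type (129/Sv x C57BL/6). Mice of the 3 groups had received the liver carcinogen diethylnitrosamine (DEN, 25 mg/kg, intraperitoneally, on postnatal day 14), a protocol that gives mice liver tumours. From weaning at 1 month they ate a high-fat diet (60% of calories from fat) for 32 weeks, and they were killed at 9 months after a 4-hour fast. One source field of the E2f1 knockout samples names vehicle and chow, against their titles, descriptions, characteristics and the protocol, so every E2f1 knockout value carries this conflict. The sources used here leave out sex, the time of day at killing and which part of each gene was deleted. The control mice are DEN-treated and fat-fed too, so no group shows untreated liver.

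Complement is a chain of plasma proteins that marks and lyses microbes. Lectins and C1 start it, the C3 convertases amplify it, and C5 to C9 assemble into the membrane attack complex. Coagulation is a parallel chain of serine protease precursors that ends in the cleavage of fibrinogen to fibrin, is held back by serpins and protein C, and is undone by plasmin. Hepatocytes are the main source of both, and liver factors such as HNF4A and C/EBP proteins are known to drive these genes. E2f1 and E2f2 encode transcription factors best known for cell cycle genes.

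A level below is the log2 signal of a gene's brightest tested probe minus the 75th percentile of its array. It is relative within the array, and levels of different probes cannot be set against each other. Differences are in log2 units with their standard error (SE), and p-values are limma's, adjusted by Benjamini-Hochberg over the genes tested, with under 0.05 called. The E2f1 probe averaged -0.77 ± 0.11 (SD, n = 4) in E2f1 knockout and 0.06 ± 0.31 in wild type livers (difference -0.82 ± 0.19, adjusted p = 0.0114, limma). The E2f2 probe averaged 0.54 ± 0.25 in livers labelled E2f2 knockout and 0.80 ± 0.26 in wild type livers, a difference of -0.26 ± 0.21 that was not called (adjusted p = 0.408, limma). In E2f1 knockout livers the same E2f2 probe averaged -0.70 ± 0.38, which was -1.50 ± 0.21 against wild type (adjusted p = 0.00141, limma) and lower than in livers labelled E2f2 knockout, which exceeded E2f1 knockout by 1.24 ± 0.21 (adjusted p = 0.00955, limma). The E2f2 probe was thus lowest in the E2f1 knockout group, and whether either probe lies in a deleted part is not known, so these values do not settle the genotypes. Because its probe does not bear out the label, the second group is called the E2f2-labelled livers. The 14 hepatocyte markers on the list were all tested, with summed levels of 14700 to 19588 in E2f1 knockout, 12835 to 18346 in E2f2-labelled and 11796 to 16993 in wild type livers. Of 12 tested liver tumour markers, 11 were lower than wild type in each comparison, with summed levels of 7.41 to 33.7 in E2f1 knockout, 17.8 to 36.1 in E2f2-labelled and 64.7 to 564 in wild type livers. The part of this in the results below was not tested. The 4 slides carried 1 array per group, always at the same position for a group, so array position and genotype cannot be told apart. In whole liver, more cells of a type and more RNA per cell cannot be told apart either.

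Against wild type, 14 of the 37 genes were higher and 0 lower in E2f1 knockout livers, and 18 were higher and 0 lower in E2f2-labelled livers. Of the genes tested, 13.2% were called higher and 7.41% lower in E2f1 knockout, and 14.6% higher and 7.57% lower in E2f2-labelled livers. The genes called in each comparison were led by C8b, C6, C9 and Mbl1, of which the first 3 are subunits of the membrane attack complex and Mbl1 is a lectin that starts complement. The median difference of the 37 genes was 0.45 in E2f1 knockout livers and 0.48 in E2f2-labelled livers, beside 0.13 and 0.18 for the genes tested. Both comparisons share the same 4 wild type livers, so they are not separate evidence. Of the 18 complement genes, 7 were higher in E2f1 knockout livers and 11 in E2f2-labelled livers (medians 0.59 and 0.64). Of the 19 coagulation genes, 7 were higher in each comparison (medians 0.23 and 0.24). The difference between complement and coagulation was not tested.

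**Figure D1:**
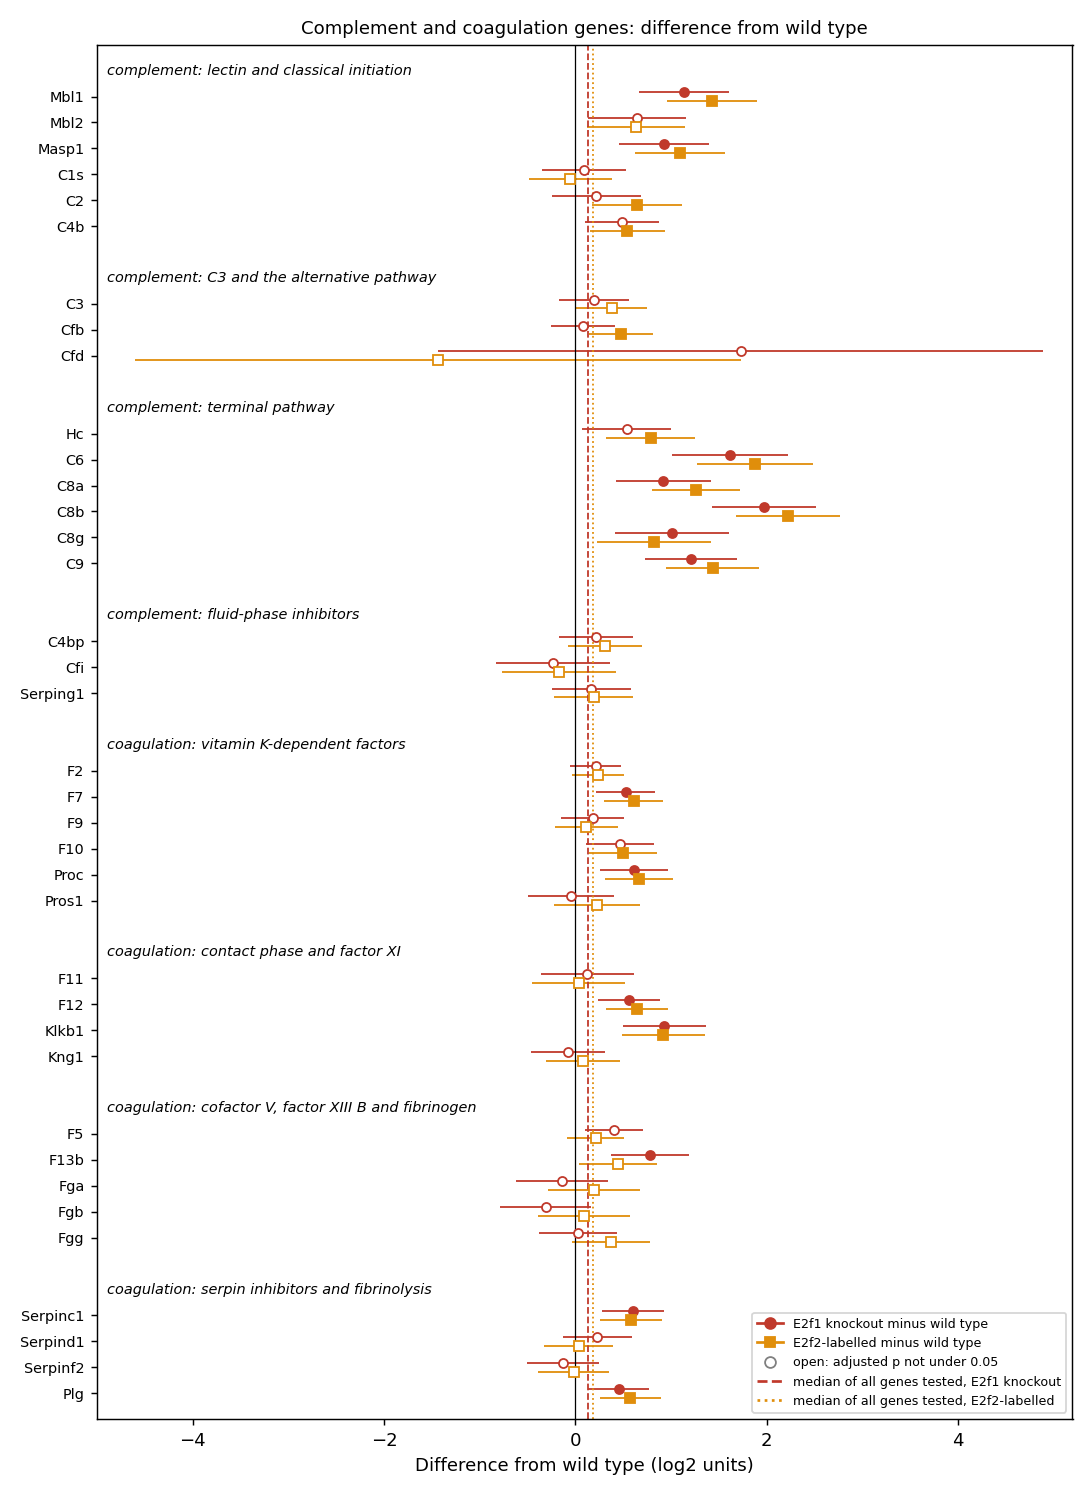
Difference of each gene from wild type (log2 units, horizontal axis), by role, for E2f1 knockout (circles) and E2f2-labelled livers (squares), n = 4 livers per group (3 for C8a in E2f1 knockout). Bars are 95% confidence intervals, filled symbols passed adjusted p under 0.05, and dashed and dotted lines mark the median of the genes tested (0.13 and 0.18); the terminal pathway holds the filled symbols farthest right.

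The counts depend on how arrays are scaled. With quantile normalization 7 genes were called in E2f1 knockout livers and 8 in E2f2-labelled livers, and with median centring 8 and 8. Of the 20572 genes tested, 3816 and 3821 were called with quantile normalization and 3002 and 2927 with median centring. In the reported scaling these were 4234 and 4564. Scaling also moved the balance over all genes: 64.0% of the genes called in E2f1 knockout were higher in the reported scaling and 50.4% with quantile normalization, and 65.9% and 49.5% in E2f2-labelled livers. Relative to the median of the genes tested, which quantile normalization moved to 0.03 and 0.07, the 37 genes stood 0.32 and 0.30 higher in the reported scaling, 0.08 and 0.04 with quantile normalization, and 0.32 and 0.30 with median centring. The number of the 37 with a positive difference was 31 and 33 in the reported scaling, 20 and 23 with quantile normalization. Single livers mattered as well: 8 genes were called in E2f1 knockout without wild type liver 2 or without E2f1 knockout liver 3, and 11 in E2f2-labelled livers without wild type liver 2 or without E2f2-labelled liver 2. Over 23 alternatives, C6, C8b, C9, Klkb1 and Mbl1 were called each time in both comparisons, and C8a and Masp1 also in E2f2-labelled livers. The calls nearest the threshold were lost in most alternatives: Plg in E2f1 knockout was called in 6 of 23, and in E2f2-labelled livers C2 and C4b were called in 7, Cfb in 8, and C8g and F10 in 9.

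**Figure D2:**
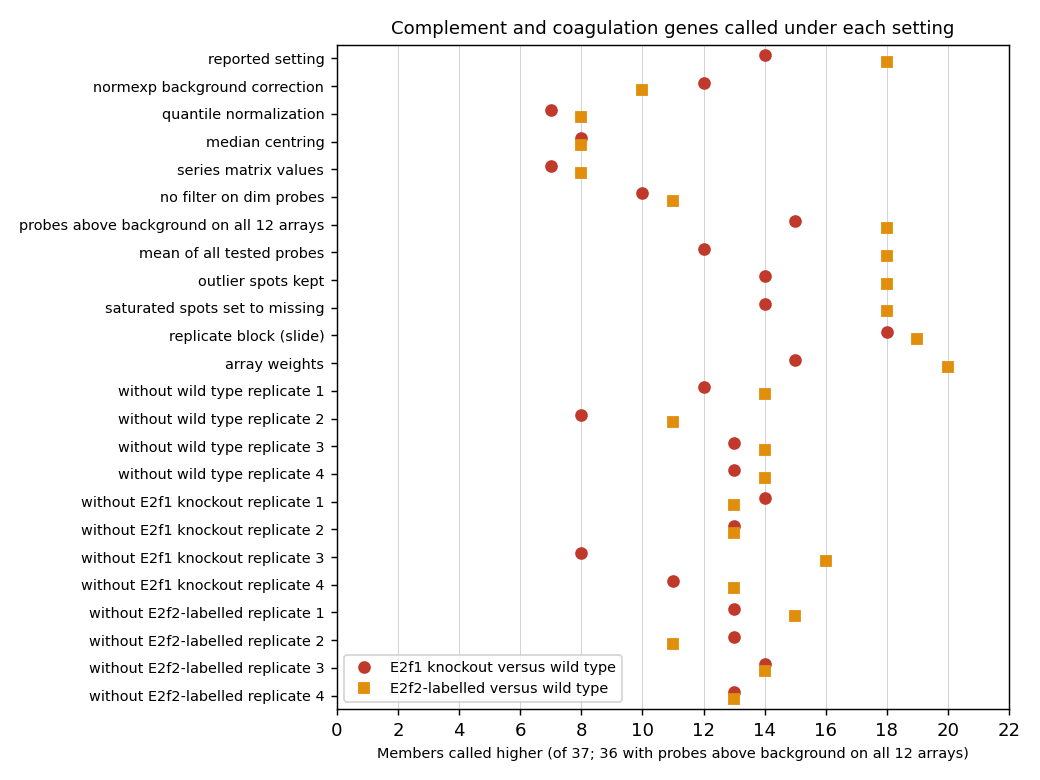
Number of the 37 genes called higher than wild type (horizontal axis) under the reported setting and 23 alternatives (rows, of which the one with probes above background on all 12 arrays holds 36 genes), for E2f1 knockout (circles) and E2f2-labelled livers (squares). The counts lie between 7 and 18 for E2f1 knockout and between 8 and 20 for E2f2-labelled livers.

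Among the genes that start the lectin and classical pathways, 2 of 6 were higher in E2f1 knockout and 4 of 6 in E2f2-labelled livers. Mbl1 encodes mannose-binding lectin A, which recognises microbial sugars. Its level was 4.26, 4.33, 4.62 and 4.12 in E2f1 knockout livers, 4.75, 4.69, 4.46 and 4.57 in E2f2-labelled livers, and 2.79, 2.89, 3.84 and 3.25 in wild type livers. No mutant liver reached down to the highest wild type liver, number 3. The difference was 1.14 ± 0.22 in E2f1 knockout (2.21-fold, adjusted p = 0.00477, limma) and 1.43 ± 0.22 in E2f2-labelled livers (2.69-fold, adjusted p = 0.00146, limma). Mbl2, the other mouse mannose-binding lectin, differed by 0.64 ± 0.24 and 0.63 ± 0.24 without being called (adjusted p = 0.0727 and 0.0738, limma), and wild type liver 2, at 6.10, lay below the other wild type livers at 6.90 to 7.04.

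Masp1 encodes the serine proteases that travel with these lectins, and different splice forms of it make different proteins. It has 3 tested probes on chromosome 16, and they are printed because they did not move alike (the files give positions on mm9, and exon or UTR placement was not used here).
Masp1 probe 1, chr16:23449609-23449668: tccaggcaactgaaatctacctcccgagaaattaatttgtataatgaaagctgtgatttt
Masp1 probe 2, chr16:23452460-23452519: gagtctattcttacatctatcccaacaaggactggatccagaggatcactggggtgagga
Masp1 probe 3, chr16:23469978-23470037: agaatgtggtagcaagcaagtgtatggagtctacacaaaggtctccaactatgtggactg
The brightest, probe 1, gave 4.30, 4.14, 4.54 and 4.22 in E2f1 knockout, 4.64, 4.65, 4.28 and 4.30 in E2f2-labelled, and 3.21, 2.79, 3.84 and 3.65 in wild type livers. Its difference was 0.93 ± 0.22 in E2f1 knockout (adjusted p = 0.0124, limma) and 1.10 ± 0.22 in E2f2-labelled livers (adjusted p = 0.00567, limma). Probe 2 differed by 0.56 ± 0.20 and 0.50 ± 0.20 without being called, and probe 3 by -0.11 ± 0.25 and 0.10 ± 0.25. A rise of Masp1 therefore rests on the probe with the lowest coordinates, and differences between probes were not tested.

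C2 and C4b encode the proteins that C1 and the lectin proteases cleave into the classical C3 convertase. C2 was higher in E2f2-labelled livers (0.65 ± 0.21, adjusted p = 0.0487, limma), where 6.57, 6.47, 6.26 and 6.06 overlapped wild type livers at 6.31, 5.66, 5.23 and 5.58. In E2f1 knockout livers it differed by 0.22 ± 0.21 (adjusted p = 0.52, limma). C4b was 0.54 ± 0.18 higher in E2f2-labelled livers (adjusted p = 0.0478, limma, but 0.81 with quantile normalization, where the difference was 0.07), and 0.49 ± 0.18 without a call in E2f1 knockout livers (adjusted p = 0.0733, limma, and 0.0252 with slide as a block). C4b has a near-identical copy, C4a, that a 60-base probe may not tell apart. C1s, the protease subunit of C1, differed by 0.09 ± 0.20 and -0.05 ± 0.20 and was not called.

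C3, the protein that the 3 complement pathways converge on, differed by 0.19 ± 0.17 in E2f1 knockout livers and 0.38 ± 0.17 in E2f2-labelled livers without a call (adjusted p = 0.469 and 0.127, limma; 0.225 and 0.0309 with slide as a block). A second C3 probe gave 0.15 ± 0.17 and 0.39 ± 0.17. Cfb encodes factor B, the catalytic part of the alternative pathway convertase. It was 8.76, 8.30, 8.22 and 8.54 in E2f2-labelled and 8.04, 8.06, 7.70 and 8.11 in wild type livers, which did not overlap (0.48 ± 0.15, adjusted p = 0.0437, limma). With quantile normalization this was 0.21 and not called (adjusted p = 0.42, limma). In E2f1 knockout livers Cfb differed by 0.08 ± 0.15.

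Cfd encodes factor D (adipsin), the protease that activates factor B and is best known from fat tissue. It was well above background on 3 E2f1 knockout, 2 E2f2-labelled and 3 wild type arrays. Its level was 4.09, -2.28, -2.29 and -3.80 in E2f1 knockout livers, -6.28, -3.48, -3.03 and -4.14 in E2f2-labelled livers, and -3.37, -2.11, -0.98 and -4.73 in wild type livers. E2f1 knockout liver 1 stood far above the other 11 livers. The difference of 1.73 ± 1.45 in E2f1 knockout was not called (adjusted p = 0.451, limma), and it was 0.01 without that liver. Fat cell genes moved with Cfd on that array. Adipoq was 1.37, Plin1 0.48 and Retn 1.09 there, against -6.05 to -4.07, -6.29 to -3.82 and -6.19 to -3.21 on the other arrays, and they were above background on that array. Cidea, at 4.84, was also higher than on the other arrays (-4.42 to 0.78), and so was Fabp4 (4.92 against -0.33 to 4.47). Cidec (1.99) lay within the range of the others (-2.25 to 3.29), and Lep (-3.31) was not above background there. The summed level of the 3 tested fat cell markers, Cidec, Fabp4 and Cidea, was 2.24 to 62.9 in E2f1 knockout, 1.05 to 2.44 in E2f2-labelled and 15.4 to 33.7 in wild type livers. Each of these 3 was above background on 4 wild type arrays, while Adipoq, Plin1 and Retn were on 0 and Lep on 1. The sum is therefore not read as a measure of fat cells. The part of fat cell genes in the Cfd values was not tested.

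**Figure D3:**
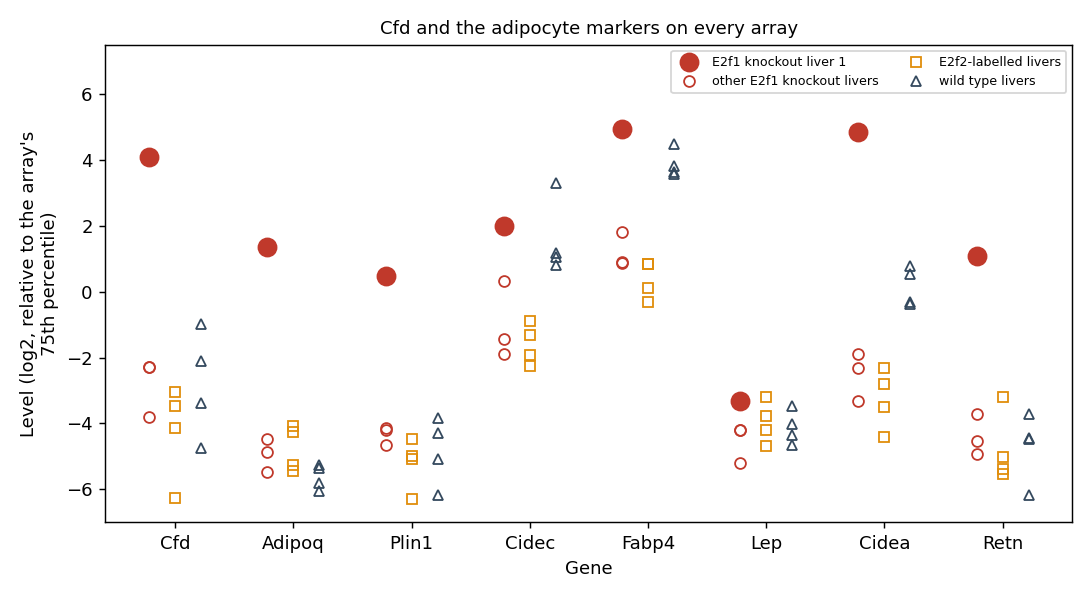
Level of Cfd and 7 fat cell marker genes (horizontal axis) on each of 12 arrays (log2, relative to the array's 75th percentile, vertical axis); values near the bottom include spots not well above background. The large filled circles are E2f1 knockout liver 1, which is highest for Cfd (4.09), Adipoq (1.37), Plin1 (0.48), Fabp4 (4.92), Cidea (4.84) and Retn (1.09).

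The terminal pathway, whose products form the membrane attack pore, had the largest share of its genes called: 5 of 6 genes were higher in E2f1 knockout livers and 6 of 6 in E2f2-labelled livers, with medians of 1.11 and 1.35. C8b encodes the beta chain of C8, which anchors the growing complex in the membrane (chromosome 4, mm9 positions 104477094 to 104477153). Its level was 5.91, 6.55, 6.42 and 5.78 in E2f1 knockout livers, 6.40, 6.57, 6.32 and 6.36 in E2f2-labelled livers, and 3.94, 3.89, 4.95 and 3.97 in wild type livers. Wild type liver 3 stood above the other wild type livers and below every mutant liver. C8b was 3.93-fold higher in E2f1 knockout (1.98 ± 0.25, adjusted p = 0.000792, limma) and 4.68-fold higher in E2f2-labelled livers (2.23 ± 0.25, adjusted p = 0.000236, limma). Wild type liver 3 also had the lowest summed tumour marker level of its group, 64.7 against 328 to 564. Whether that bears on C8b was not tested.

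C8a encodes the alpha chain of C8 and lies next to C8b. It was 6.44, 6.60 and 6.06 in E2f1 knockout livers 1, 3 and 4 (the spot of liver 2 was an outlier and left out), 6.75, 6.94, 6.45 and 6.68 in E2f2-labelled livers, and 5.09, 5.37, 5.98 and 5.35 in wild type livers. The groups did not overlap, and C8a was higher by 0.92 ± 0.23 (adjusted p = 0.0166, limma) and 1.26 ± 0.21 (adjusted p = 0.00296, limma). A second C8a probe gave 0.87 ± 0.18 and 1.03 ± 0.18. With quantile normalization C8a was not called in E2f1 knockout (0.62, adjusted p = 0.0961, limma) and still called in E2f2-labelled livers. C8g, the gamma chain from chromosome 2, was higher by 1.01 ± 0.27 in E2f1 knockout (adjusted p = 0.0223, limma) and 0.82 ± 0.27 in E2f2-labelled livers (adjusted p = 0.0485, limma), where it overlapped wild type. Its second probe gave 1.02 ± 0.18 and 0.57 ± 0.18. C8g differed by 0.75 and 0.59 with quantile normalization and was not called.

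C6 joins C5b at the start of the pore (chromosome 15, mm9 positions 4748363 to 4748422). It was 3.92, 4.42, 4.48 and 3.91 in E2f1 knockout, 4.33, 4.47, 4.59 and 4.37 in E2f2-labelled and 2.01, 2.56, 3.47 and 2.20 in wild type livers. Wild type liver 3 was again the highest of its group, still below the mutant livers. C6 was 3.08-fold higher in E2f1 knockout (1.62 ± 0.28, adjusted p = 0.00319, limma) and 3.68-fold higher in E2f2-labelled livers (1.88 ± 0.28, adjusted p = 0.00127, limma).

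C9 is the subunit that polymerises into the wall of the pore (chromosome 15, mm9 positions 6433127 to 6433186). It was 5.36, 5.68, 4.74 and 4.75 in E2f1 knockout, 5.47, 5.48, 5.27 and 5.21 in E2f2-labelled and 4.04, 4.08, 4.04 and 3.52 in wild type livers. The groups did not overlap. The difference was 1.21 ± 0.22 (2.31-fold, adjusted p = 0.0043, limma) and 1.44 ± 0.22 (2.71-fold, adjusted p = 0.00166, limma).

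Hc, which encodes C5, differed least within this pathway. It was 9.00, 9.40, 8.90 and 8.91 in E2f1 knockout, 9.21, 9.71, 8.87 and 9.42 in E2f2-labelled and 8.75, 8.46, 8.10 and 8.76 in wild type livers. Both mutant groups lay above wild type, and 0.79 ± 0.21 was called in E2f2-labelled livers (adjusted p = 0.0217, limma). In E2f1 knockout 0.54 ± 0.21 was not called (adjusted p = 0.0954, limma, and 0.0413 with slide as a block). Hc was not called in either comparison with quantile normalization (0.13 and 0.37).

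**Figure D4:**
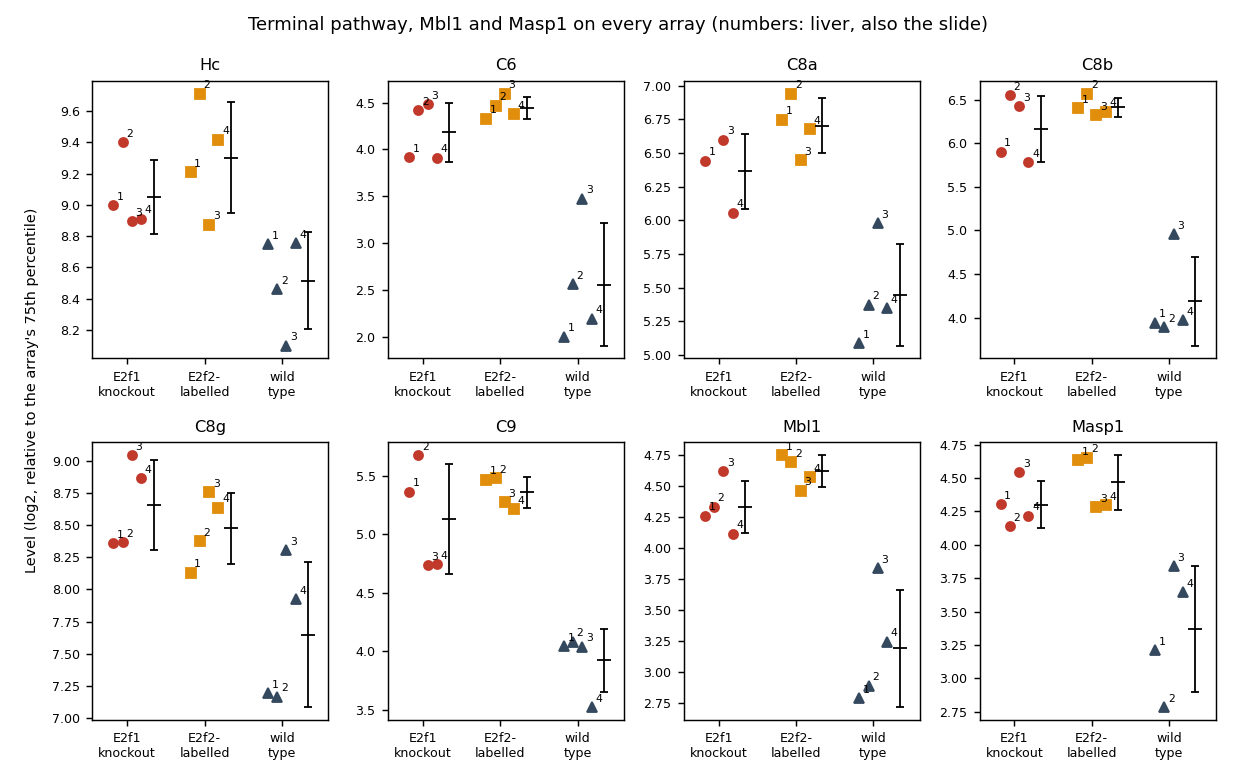
Level of the 6 terminal pathway genes, Mbl1 and Masp1 (log2, relative to the array's 75th percentile, vertical axis) in E2f1 knockout (circles), E2f2-labelled (squares) and wild type livers (triangles). Small digits are the liver numbers, and black bars are the mean ± SD of 4 livers (3 for C8a in E2f1 knockout); wild type livers lie lowest in these panels, and C8g in E2f2-labelled livers overlaps them.

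The promoter windows of these genes, from 250 bases before to 50 after the start of the gene, come from RefSeq (GRCm38.p6) and are printed on the gene's strand. Windows were found for 28 of the 37 genes, 30 windows in all, and not for Masp1, C2, C4b, Cfb, Cfi, Serping1, Proc, Kng1 and Plg. Shown are the neighbours C8b and C8a, which rose, C9, which rose, and Fgb of fibrinogen, which was not called. Capitals mark matches, on either strand, to an HNF4 site (CAAAGTCC), a C/EBP site (TTGCNNAA), an E2F site (TTTCGCGC, TTTGGCGC, TTTCCCGC or TTTGCCGC) or a STAT site (TTCNNNGAA).
C8b, chr4:104766067-104766366, plus strand: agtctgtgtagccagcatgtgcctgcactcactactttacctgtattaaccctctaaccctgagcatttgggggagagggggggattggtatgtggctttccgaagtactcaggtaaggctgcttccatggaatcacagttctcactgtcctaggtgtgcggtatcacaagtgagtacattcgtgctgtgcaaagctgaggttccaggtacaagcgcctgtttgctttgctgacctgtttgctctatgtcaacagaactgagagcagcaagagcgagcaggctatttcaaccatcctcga
C8a, chr4:104876349-104876648, minus strand: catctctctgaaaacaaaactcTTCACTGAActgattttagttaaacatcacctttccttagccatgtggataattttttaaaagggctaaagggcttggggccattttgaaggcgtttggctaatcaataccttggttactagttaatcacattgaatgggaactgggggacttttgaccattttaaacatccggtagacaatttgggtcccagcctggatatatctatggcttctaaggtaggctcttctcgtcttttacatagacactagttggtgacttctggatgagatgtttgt
C9, chr15:6445096-6445395, plus strand: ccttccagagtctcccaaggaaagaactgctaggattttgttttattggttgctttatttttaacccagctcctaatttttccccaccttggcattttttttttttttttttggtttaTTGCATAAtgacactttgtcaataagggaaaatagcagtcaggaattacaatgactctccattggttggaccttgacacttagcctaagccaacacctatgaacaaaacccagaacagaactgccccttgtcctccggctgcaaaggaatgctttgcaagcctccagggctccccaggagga
Fgb, chr3:83049814-83050113, minus strand: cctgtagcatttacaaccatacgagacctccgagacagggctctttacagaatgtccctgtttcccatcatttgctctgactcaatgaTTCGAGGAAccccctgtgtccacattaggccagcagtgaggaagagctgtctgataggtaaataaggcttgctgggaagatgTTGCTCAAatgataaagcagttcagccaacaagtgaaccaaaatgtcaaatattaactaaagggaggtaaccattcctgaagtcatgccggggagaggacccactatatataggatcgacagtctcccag
In C8a a STAT match begins at position -228 from the start, and in C9 a C/EBP match at -132. In Fgb a C/EBP match begins at -80 and a STAT match at -162. The windows of C8b, C6 and Mbl1 held none of these letters.

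Over the 30 windows, 30% held the C/EBP letters, against 10.8% of the 32851 windows in the table. The STAT letters were in 16.7% against 8.3%, the E2F letters in 3.33% against 2.26%, and the HNF4 letters in 0 windows against 1.42%. The 1 window with E2F letters was that of Mbl2. No matches of different motifs overlapped in these windows. These shares describe letters, not binding. The genes with C/EBP letters were C1s, C3, C9, F11, F9, Fga, Fgb, Klkb1 and Serpinc1, of which C9, Klkb1 and Serpinc1 were called in a comparison with wild type.

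The fluid-phase inhibitors of complement were not called. C4bp, which breaks up the classical convertase, differed by 0.22 ± 0.18 in E2f1 knockout livers and 0.31 ± 0.18 in E2f2-labelled livers. Cfi, the protease that inactivates C3b and C4b, differed by -0.23 ± 0.27 and -0.17 ± 0.27. Serping1, the C1 inhibitor that also restrains the contact phase, differed by 0.17 ± 0.19 and 0.19 ± 0.19. Their 95% intervals ran from -0.83 to 0.69 in all, so a change as large as that of C6 lies outside them.

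Of 6 vitamin K-dependent factors, 2 were higher in E2f1 knockout livers and 3 in E2f2-labelled livers. F7, the factor that starts coagulation with tissue factor, was 3.64, 3.51, 3.85 and 3.74 in E2f1 knockout, 3.76, 3.92, 3.78 and 3.60 in E2f2-labelled and 3.16, 3.13, 2.94 and 3.40 in wild type livers. The groups did not overlap (0.53 ± 0.14, adjusted p = 0.0219, and 0.61 ± 0.14, adjusted p = 0.0111, limma), and a second probe gave 0.57 ± 0.17 and 0.58 ± 0.17. With quantile normalization the F7 differences were 0.34 and 0.40 and not called. Proc encodes protein C, which inactivates factors V and VIII. It was higher by 0.62 ± 0.16 (adjusted p = 0.0204, limma) and 0.66 ± 0.16 (adjusted p = 0.0145, limma), with 7.84, 7.83, 8.11 and 7.95 in E2f1 knockout, 7.74, 7.85, 8.19 and 8.13 in E2f2-labelled and 7.22, 7.03, 7.61 and 7.40 in wild type livers. For Proc, quantile normalization gave 0.37 and 0.44 without a call. F10, at the junction of both branches of coagulation, was called in E2f2-labelled livers (0.50 ± 0.16, adjusted p = 0.0452, limma) and not in E2f1 knockout (0.47 ± 0.16, adjusted p = 0.0602, limma, and 0.0434 with slide as a block). The difference between those groups was 0.03 ± 0.16. F2 (prothrombin) differed by 0.21 ± 0.12 and 0.24 ± 0.12, F9 by 0.18 ± 0.15 and 0.12 ± 0.15, and Pros1 (protein S) by -0.05 ± 0.21 and 0.23 ± 0.21, none of them called. F2 had the smallest spread between livers of the 37 genes (pooled SD 0.11).

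In the contact phase, Klkb1 and F12 rose in both comparisons while F11 and Kng1 were not called. Klkb1 encodes prekallikrein, which factor XII activates on surfaces. It was 5.55, 5.25, 5.85 and 5.65 in E2f1 knockout, 5.63, 5.50, 5.65 and 5.48 in E2f2-labelled and 4.31, 4.38, 5.21 and 4.67 in wild type livers. Wild type liver 3, at 5.21, came close to the lowest mutant liver, at 5.25. The difference was 0.93 ± 0.20 (adjusted p = 0.00847, limma) and 0.92 ± 0.20 (adjusted p = 0.00835, limma), and a second probe gave 1.12 ± 0.24 and 1.25 ± 0.24. F12, the factor XII that starts the contact phase, ranged over 6.80 to 7.32 in E2f1 knockout, 6.97 to 7.25 in E2f2-labelled and 6.29 to 6.62 in wild type livers, with no overlap with wild type (0.57 ± 0.15, adjusted p = 0.0201, and 0.64 ± 0.15, adjusted p = 0.0109, limma). With quantile normalization F12 was not called in E2f1 knockout (0.32, adjusted p = 0.079, limma) and still called in E2f2-labelled livers. F11, a neighbour of Klkb1 that arose from the same ancestor, differed by 0.13 ± 0.22 and 0.03 ± 0.22. Kng1, the kininogen that prekallikrein cleaves, differed by -0.08 ± 0.18 and 0.08 ± 0.18.

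The 3 fibrinogen chains, the substrate of thrombin, were not called in either comparison. Fga was 6.20, 6.30, 6.54 and 6.18 in E2f1 knockout, 6.84, 6.84, 6.13 and 6.76 in E2f2-labelled and 6.64, 6.86, 5.92 and 6.35 in wild type livers. Fgb was 9.95, 10.15, 10.05 and 9.91 in E2f1 knockout, 10.43, 10.73, 10.02 and 10.49 in E2f2-labelled and 10.32, 10.76, 9.71 and 10.52 in wild type livers. Fgg was 10.04, 10.21, 10.12 and 10.12 in E2f1 knockout, 10.58, 10.69, 10.10 and 10.51 in E2f2-labelled and 10.05, 10.44, 9.63 and 10.27 in wild type livers. For the 3 chains, liver 3 was the lowest of its group in E2f2-labelled and wild type livers, and E2f1 knockout livers spread least. The differences from wild type were -0.14 ± 0.22, -0.31 ± 0.22 and 0.03 ± 0.19 in E2f1 knockout, and 0.20 ± 0.22, 0.09 ± 0.22 and 0.37 ± 0.19 in E2f2-labelled livers.

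F13b, the carrier chain of the factor that cross-links fibrin, was the 1 gene called in E2f1 knockout and not in E2f2-labelled livers. It was 3.42, 3.25, 3.73 and 3.20 in E2f1 knockout, 3.18, 3.29, 3.19 and 2.59 in E2f2-labelled and 2.78, 2.54, 2.39 and 2.76 in wild type livers. E2f2-labelled liver 4 fell within the wild type range, and the others of its group did not. The difference was 0.79 ± 0.19 (adjusted p = 0.0132, limma) and 0.45 ± 0.19 (adjusted p = 0.104, limma), and that between the mutant groups, -0.34 ± 0.19, was not called (adjusted p = 0.563, limma). F5, the cofactor of factor Xa, differed by 0.40 ± 0.14 in E2f1 knockout (adjusted p = 0.0565, limma, and 0.0472 with slide as a block) and 0.21 ± 0.14 in E2f2-labelled livers.

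Serpinc1 and Plg rose in both comparisons, while Serpind1 and Serpinf2 were not called. Serpinc1 encodes antithrombin, the main inhibitor of thrombin and factor Xa. It was 9.47, 9.55, 9.86 and 9.65 in E2f1 knockout, 9.40, 9.66, 9.81 and 9.57 in E2f2-labelled and 8.98, 8.82, 9.23 and 9.08 in wild type livers (0.61 ± 0.15, adjusted p = 0.0149, and 0.59 ± 0.15, adjusted p = 0.0164, limma). These groups did not overlap, but with quantile normalization the differences were 0.16 and 0.11 and not called. Plg, the precursor of plasmin, was higher by 0.45 ± 0.15 (adjusted p = 0.0488, limma) and 0.58 ± 0.15 (adjusted p = 0.0173, limma), and with quantile normalization by 0.22 and 0.32 without a call. Serpind1 (heparin cofactor II) differed by 0.23 ± 0.17 and 0.03 ± 0.17, and Serpinf2, the plasmin inhibitor, by -0.13 ± 0.17 and -0.02 ± 0.17.

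**Figure D5:**
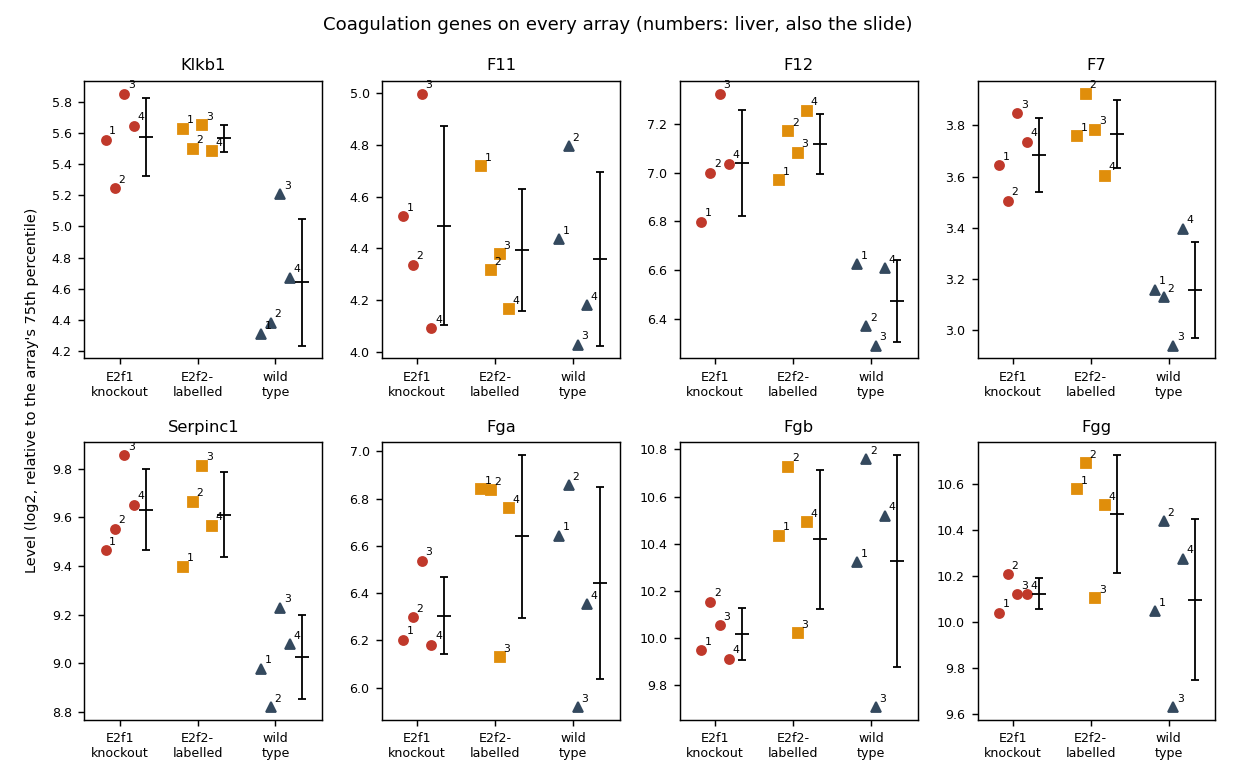
Level of 8 coagulation genes (log2, relative to the array's 75th percentile, vertical axis) in E2f1 knockout (circles), E2f2-labelled (squares) and wild type livers (triangles). Small digits are the liver numbers and black bars the mean ± SD of 4 livers; Klkb1, F12, F7 and Serpinc1 in wild type lie below the mutant groups, while F11 and the fibrinogen chains overlap.

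Between E2f2-labelled and E2f1 knockout livers no gene passed the limma test: of the 37, 0 were called higher and 0 lower, beside 0.914% and 0.724% of the genes tested, and 2 passed an unadjusted p under 0.05 (Cfb at 0.40 ± 0.15 and Cfd at -3.17 ± 1.45). Leaving Cfd aside, the 95% intervals of the other 36 genes lay between -0.78 and 0.89, the narrowest being that of F2 (-0.24 to 0.30). A difference of 1 log2 unit either way thus lies outside the interval of these 36 genes, while smaller differences lie within it. The median difference was 0.08, against 0.03 for the genes tested.

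Of the 37 genes, 13 were called in both comparisons with wild type, 1 in E2f1 knockout and not in E2f2-labelled livers (F13b), 5 in E2f2-labelled and not in E2f1 knockout livers (C2, C4b, Cfb, Hc and F10) and 18 in neither; of these 6 genes, none was called between the mutant groups. The 14 genes called in E2f1 knockout and the 18 called in E2f2-labelled livers were higher on each slide where both arrays had a value. They were called on these same arrays, so this is no separate support. Among the 18, C2, C4b and C8g overlapped wild type in E2f2-labelled livers. How many of the genes tested do not overlap was not counted, so lack of overlap is not read as particular to these genes. The median within-slide difference of the 37 genes was 0.27, 0.27, 0.70 and 0.24 on slides 1 to 4 in E2f1 knockout, and 0.40, 0.75, 0.44 and 0.43 in E2f2-labelled livers. In E2f1 knockout slide 3 was highest, most of all for the coagulation genes, with a median of 0.64 against 0.09 to 0.22 on the other slides. There E2f1 knockout liver 3 had the highest coagulation level of its group (median deviation from the 12-array mean 0.37, the others -0.02 to 0.07) and wild type liver 3 the lowest of its own (-0.39, the others -0.18 to -0.065). For the complement genes C6, C8a, C8b, C8g, Mbl1, Masp1 and Cfd and the coagulation genes Klkb1, Proc and Serpinc1, that wild type liver was instead the highest of its group. The spread between livers of a group, pooled over groups, had a median of 0.26 over the 37 genes, from 0.11 for F2 to 2.38 for Cfd, against 0.32 over the genes tested.

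Several of these genes are neighbours. Differences between neighbours were not tested, and positions are those of the probes on mm9. C8b and C8a lie 11.3 kb apart on chromosome 4, and both rose. F7 and F10 lie 20.5 kb apart on chromosome 8, with 0.53 and 0.47 in E2f1 knockout and 0.61 and 0.50 in E2f2-labelled livers. Klkb1 lies 28.2 kb from F11 on the same chromosome, and Klkb1 rose while F11 was not called. C2 and Cfb, 5.72 kb apart on chromosome 17, were called in E2f2-labelled livers, with 0.22 and 0.08 in E2f1 knockout. Masp1 and Kng1 lie 368 kb apart on chromosome 16, and Masp1 rose while Kng1 was not called.

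Other complement genes, from a list written for this comparison, were called higher in part. Over the genes tested, 13.2% were higher and 7.41% lower in E2f1 knockout, and 14.6% and 7.57% in E2f2-labelled livers. Of 13 tested genes of the classical and lectin pathways, 4 were higher and 0 lower in E2f1 knockout, and 5 higher and 1 lower in E2f2-labelled livers. Fcna, which encodes ficolin A, another lectin that starts complement, was higher by 1.33 ± 0.25 and 1.19 ± 0.25 (adjusted p = 0.00465 and 0.00711, limma). Masp2, the protease that cleaves C4 and C2, was higher by 1.13 ± 0.27 and 0.88 ± 0.27, and C1qb, made by macrophages, was lower in E2f2-labelled livers (-0.97 ± 0.29, adjusted p = 0.0342, limma). Of 9 alternative and terminal components, 3 were higher and 0 lower in each comparison. Vtn (vitronectin), which blocks the pore in plasma, was higher by 0.73 ± 0.15 in E2f2-labelled livers (0.44 ± 0.15 in E2f1 knockout, not called). Of 11 receptors and membrane regulators, 2 were higher and 2 lower in E2f1 knockout, and 3 higher and 2 lower in E2f2-labelled livers. The 3 include C5ar1, whose test is not read. Cd59a, which stops C9 from polymerising on the body's own cells, was higher by 1.12 ± 0.18 and 1.44 ± 0.18 (adjusted p = 0.00278 and 0.000541, limma). Itgax and Itgb2, the chains of a complement receptor of myeloid cells, were lower, Itgax by -3.13 ± 0.54 and -4.25 ± 0.54. C5ar1, the C5a receptor, was above background on 3 E2f2-labelled, 2 E2f1 knockout and 0 wild type arrays, so no size of its difference is given. It passed the filter through the E2f2-labelled group, so no test is read from it.

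Of 26 other coagulation and fibrinolysis genes tested, 5 were higher and 2 lower in E2f1 knockout, and 4 higher and 7 lower in E2f2-labelled livers. The 7 include Plat and Adamts13, whose tests are not read. Over the genes tested, 13.2% were higher and 7.41% lower in E2f1 knockout, and 14.6% and 7.57% in E2f2-labelled livers. Plat, the tissue plasminogen activator, was above background on 0 arrays of either mutant group and 3 wild type arrays, so no size of its difference is given. It passed the filter through wild type, so no test is read from it. Mug1 and Mug2, murinoglobulins that trap proteases, were higher in E2f1 knockout by 1.13 ± 0.21 and 1.14 ± 0.30, and in E2f2-labelled livers by 0.90 ± 0.21 and 0.56 ± 0.30, the last not called. Adamts13, which trims von Willebrand factor and is named here after its values were seen, was above background on 2 E2f2-labelled, 4 E2f1 knockout and 4 wild type arrays. At its brightest probe it differed by -2.65 ± 0.40 between E2f2-labelled and E2f1 knockout livers. Between E2f2-labelled and wild type livers it differed by -2.07 ± 0.40, but by 0.658 with the mean of its tested probes. Adamts13 passed the filter through E2f1 knockout and wild type livers, so no test is read from it. In the vitamin K cycle, 1 of 6 genes was higher in E2f1 knockout and 2 of 6 in E2f2-labelled livers. Vkorc1, which recycles vitamin K, was higher by 0.74 ± 0.16 and 0.70 ± 0.16, and Lman1, which carries factors V and VIII out of the endoplasmic reticulum, by 0.62 ± 0.19 in E2f2-labelled livers.

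Many acute phase proteins are driven by interleukin 6, as C3 and fibrinogen are. Of 27, 2 were higher and 1 lower in E2f1 knockout, and 4 higher and 1 lower in E2f2-labelled livers. Over the genes tested, 13.2% were higher and 7.41% lower in E2f1 knockout, and 14.6% and 7.57% in E2f2-labelled livers. The median difference of the 27 was 0.11 and 0.46, beside 0.45 and 0.48 for the 37 genes. Serpina3k was higher by 1.76 ± 0.25 and 2.25 ± 0.25, and Hamp (hepcidin) by 3.78 ± 0.81 in E2f2-labelled livers, while Cd14 was lower (-2.50 ± 0.63 and -3.21 ± 0.63). Of 23 liver transcription factors and interleukin 6 signalling genes, 7 were higher and 2 lower in E2f1 knockout, and 7 higher and 0 lower in E2f2-labelled livers. Their median difference was 0.49 and 0.31. Il6ra, the interleukin 6 receptor, was higher by 1.46 ± 0.28 and 1.08 ± 0.28, and Il1r1 by 2.43 ± 0.43 in E2f2-labelled livers. Onecut1 and Osmr were lower in E2f1 knockout, by -1.50 ± 0.36 and -1.52 ± 0.48. Hnf4a and Cebpb are named here after their values were seen, because HNF4 and C/EBP letters were searched in the promoter windows. The shares of windows that hold these letters are given above. Whether Hnf4a or Cebpb plays a part in the values of the complement and coagulation genes was not tested. Hnf4a was higher by 0.68 ± 0.14 and 0.79 ± 0.14 (adjusted p = 0.00788 and 0.00388, limma), and Cebpb by 1.25 ± 0.25 and 1.18 ± 0.25 (adjusted p = 0.00574 and 0.00699, limma).

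Markers of other cells moved beside these genes. Of 8 neutrophil markers, 5 were lower in E2f1 knockout livers and 3 in E2f2-labelled livers, with summed levels of 7.06 to 68.2, 14.9 to 117 and, in wild type, 61.4 to 189. Of 5 tested platelet markers, 4 were lower in each (1.25 to 2.69, 1.00 to 2.23 and, in wild type, 3.43 to 7.65). Among these markers, Ltf and Ngp of neutrophils and Gp9 and Ppbp of platelets were not above background on all 12 arrays. Their low values may therefore lie near background. Of 8 endothelial markers 2 were lower in each, and of 8 stellate cell markers 3. Of 9 macrophage markers, 2 were higher in each and 1 was lower in E2f2-labelled livers. Of 6 tested T and NK cell markers 2 were lower in E2f2-labelled livers, and 1 of 6 B cell markers was higher in E2f1 knockout. Of 3 tested exocrine pancreas markers 1 was lower in each, 0 of 3 tested cholangiocyte markers were called, and 0 of 5 skeletal muscle markers were tested. Of 14 hepatocyte markers, 4 were higher in E2f1 knockout livers and 3 in E2f2-labelled livers, with median differences of 0.26 and 0.40. The part of these in the values of the 37 genes was not tested.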

How the data were processed

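RNA of 12 mouse livers was labelled (50 ng each) and hybridised to 1-colour Agilent arrays, 1 array per mouse. Per the file headers, Agilent Feature Extraction 10.7.3.1 gave the deposited intensity values, whose processed signal is background-subtracted and detrended. The authors also deposited a table of log2 values with 1 shared distribution over the arrays, how it was made is not stated, and it served as an alternative. Outlier and control spots were left out and no spot was saturated. Levels are log2 of the processed signal minus the log2 75th percentile of the array (119.2 to 238.3 intensity units). Each array measured 59305 spots, 44.8 to 54.5% of its probes were well above background, and the number of arrays limits the precision. A probe was tested if 3 or more of the 4 arrays in any group had it well above background (28438 of 55681), and the brightest such probe stood for its gene, 20572 genes in all. limma 3.58.1 (R 4.3.3) fitted the 3 groups together, with Benjamini-Hochberg adjustment and a threshold of 0.05. Mice are separate animals, so the spread is between animals. The fit was tested on simulated data.

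The 37 genes and the other lists were chosen with earlier results of these data known. All 37 are named, and of each other list up to 4 called genes, the 2 largest rises and the 2 largest falls; Hnf4a, Cebpb and Adamts13 fall outside this rule. Some items that the rule or the motif search would give are not reported here. Replicate numbers match slides. Of 12 same-slide pairs of arrays, 10 correlated above 0.1 once group means were removed (range 0.04 to 0.42). On average, 11 of 12 arrays correlated best with the arrays of their own number, so arrays of a slide resembled each other. The design names no pairing of mice, so the reported fit left slide out. Slide was fitted as a block as an alternative, which called more genes against wild type. Other alternatives were background correction, scaling, filter, probe choice, spot flags, array weights and leaving out each liver.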

Additional observations from a re-analysis of the deposited data

Results flagged for a closer look

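Of 110 groups of 4 livers examined over the 37 genes, 7 had a liver whose gap to the others passed Dixon's critical value of 0.829, where chance gives about 1 in 20. In E2f2-labelled livers, F9 was 3.31 in liver 3 against 3.56 to 3.57 in the others, Fga was 6.13 in liver 3 against 6.76 to 6.84, and F13b was 2.59 in liver 4 against 3.18 to 3.29. In wild type livers, Mbl2 was 6.10 in liver 2 against 6.90 to 7.04, and C9 was 3.52 in liver 4 against 4.04 to 4.08. Wild type liver 3 held the other 2, with C8b at 4.95 against 3.89 to 3.97 and Serping1 at 6.92 against 7.58 to 7.64.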

How the results depend on the processing

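Of the genes called, none changed sign under 23 alternatives: in E2f1 knockout 269 of 322 values kept the call and 53 lost it, and in E2f2-labelled livers 313 of 414 kept it and 101 lost it. The number called was 7 in E2f1 knockout livers and 8 in E2f2-labelled livers with quantile normalization, 8 and 8 with median centring, 7 and 8 with the authors' deposited log2 values, 10 in E2f2-labelled livers with normexp and 11 with no filter on dim probes. The median difference of the 37 genes was 0.11 and 0.11 with quantile normalization, 0.11 and 0.093 with the deposited values, and 0.315 in E2f2-labelled livers with normexp. Leaving out single livers gave 8 to 14 and 11 to 16 genes. With slide as a replicate block, 18 genes were called in E2f1 knockout (14 shared with the reported 14), 19 in E2f2-labelled livers (18 shared) and 0 between the mutant groups. Over all genes tested, 4234, 4564 and 337 were called in E2f1 knockout, E2f2-labelled and between mutant groups. These became 5489, 6294 and 436 with the block. Against wild type they were 3816 and 3821 with quantile normalization, and 3774 and 3802 with the deposited values. They were 2789 and 2989 with no filter, 2927 in E2f2-labelled livers with median centring, and 2538 to 4897 and 2753 to 5278 with single livers left out. Between the mutant groups they were 214 with normexp, 208 with probes above background on all 12 arrays and 519 with array weights. For named genes outside the 37, alternatives were chosen after seeing the data: 694 of 751 values kept their call in E2f1 knockout, and 825 of 933 in E2f2-labelled livers. There 1 changed sign, Adamts13, at 0.658 with the mean of all tested probes, and the cause was not tested.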
